A study of Homo sapiens with 8 samples.

Results

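The genes described here are the 4 adhesion molecules of the L1 family (L1CAM, CHL1, NRCAM and NFASC), the 2 neuropilins (NRP1 and NRP2) and the 2 neuropilin-like genes DCBLD1 and DCBLD2. They were taken by name, as 8 of the 56632 genes in the count table. The set was chosen by the levels of these genes in the same libraries, as an earlier analysis showed them across M1 to M4, so the differences between lines are given for them as descriptions with a standard error (SE) and without a p-value. The question put to them is how their mRNA levels differ between the stages of a cell line model of breast cancer progression.

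L1 family proteins are transmembrane molecules of the immunoglobulin superfamily that bind each other, integrins and matrix on the outside and ankyrin and ERM proteins on the inside. They are best known from axon growth and from the nodes of myelinated nerves, and L1CAM is also made by many carcinomas. Neuropilins are co-receptors without an enzymatic domain: they bind secreted class 3 semaphorins and hand the signal to plexins, and they bind VEGF beside the VEGF receptors. DCBLD1 and DCBLD2 (also known as ESDN or CLCP1) have a neuropilin-like extracellular architecture of CUB, LCCL and discoidin domains, and a tail that is phosphorylated on tyrosine and recruits CRK adaptors.

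The 8 libraries came from 4 human cell lines of the MCF10A series, with 2 biological replicates per line. M1 is MCF10A, an immortalized mammary epithelial line that forms no tumors. M2 is MCF10AT1k.cl2, made from MCF10A with activated T24-HRAS and passage as a xenograft, and M3 (MCF10Ca1h) and M4 (MCF10CA1a.cl1) come from carcinomas that arose in xenografts of M2. Xenografts of M3 are for the most part low-grade and differentiated, whereas M4 gives tumors with comparatively little differentiation and its cells reach the lung from the tail vein. Each stage is therefore represented by a single line, and a difference between stages is a difference between these lines. All 4 lines were grown as 3D acini in Matrigel for 8 days with 2% horse serum, hydrocortisone, cholera toxin, insulin and penicillin/streptomycin. The medium of M1 and M2 held 10 ng/ml EGF and that of M3 and M4 held none, so in M3 or M4 against M1 or M2 the line and the medium cannot be told apart.

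Levels are CPM (each library's counts divided by its effective size and expressed per 1e+06 counts), scaled between libraries by TMM, and the 2 values given for a line are its replicates 1 and 2. Library totals ran from 69669970 to 107350344 counts. All 9 epithelial markers looked at reached 1 CPM, with a sum of 9466 to 17323 CPM per library. Of the markers of other cells, 1 of 8 neuronal, 2 of 6 glial, 0 of 5 endothelial, 2 of 6 immune and 2 of 6 fibroblast genes reached a mean of 1 CPM in a line. HRAS stood at 139 to 154 CPM in M1, 154 to 160 in M2, 269 to 327 in M3 and 335 to 352 in M4, and these counts do not separate the T24 transgene from the endogenous gene. Since only 2 libraries stand for each line, p-values and standard errors rest on the spread between replicate cultures. That spread was estimated in 1 fit over all 8 libraries with information shared across genes. It is therefore not the spread of the compared lines alone.

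The labels of 2 libraries are in doubt. In an expression table that accompanies the study, values under the name M2 replicate 1 tracked those of M1 replicate 2 here (r = 0.98 over 268 genes), and values under the name M1 replicate 2 tracked M2 replicate 1 (r = 0.959). Each of the other 6 columns tracked the library of its own name. As labelled, Spearman's rho between the 2 replicates of a line (across 13495 genes) was 0.971 for M1, 0.998 for M2, 0.977 for M3 and 0.986 for M4. The chi-square per degree of freedom between their counts was 233 for M1, 6.65 for M2, 293 for M3 and 111 for M4. By both measures the M2 pair, which holds one of these libraries, was the closest. The serial numbers of the libraries, in contrast, rise from M1 to M4 within each replicate only with the exchange. Which labels are right was not tested. The GEO labels are used here, and values with these 2 libraries exchanged are given beside the members' differences from M1 and beside each named call that the exchange ended. The difference of M4 from M3 uses neither library for its means, though both enter the shared estimate of the spread.

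On the annotation of the count table's build (GRCh37), L1CAM lies at chrX:153126969-153151627, CHL1 at chr3:238446-451100, NRCAM at chr7:107788068-108097161 and NFASC at chr1:204797779-204991950. NRP1 lies at chr10:33466420-33625190, NRP2 at chr2:206546714-206662857, DCBLD1 at chr6:117774980-117891021 and DCBLD2 at chr3:98514785-98620539. DCBLD1 and DCBLD2 share exonic sequence with a counted coding gene of the opposite strand, and the sources used here do not state whether counting used the strand. DCBLD1 shares 117 bases with GOPC, which had 3252 to 6314 counts per library, and DCBLD2 shares 235 bases with ST3GAL6, which had 39 to 326. The exons of NRP1 overlap those of the antisense gene ENSG00000238258 over 561 bases, and that gene had 0 to 3 counts. L1CAM shares 358 bases with L1CAM-AS1, which is not analysed here.

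The promoter windows of 4 members are printed because their mRNAs mark the patterns described below: L1CAM, DCBLD1 and DCBLD2 had their highest mean level in M4, and NFASC was the member whose M4 libraries lay below all others. NRCAM also had its lowest mean in M4 but overlapped with M1, and its 3 windows are not printed. Each window is the RefSeq sequence from 250 bases before to 50 bases after a transcription start on GRCh38.p14, read 5′ to 3′ along the gene, and for L1CAM and NFASC it is the first of 2 listed windows. The positions are chrX:153875895-153876194 for L1CAM (minus strand), chr6:117482424-117482723 for DCBLD1 (plus), chr3:98901646-98901945 for DCBLD2 (minus) and chr1:204828402-204828701 for NFASC (plus). Capitals mark exact matches on either strand. The letters searched were GGGCGG for the GC box and CCAAT for the CCAAT box. For a TEAD element they were GGAATG, and for an AP-1 element they were TGANTCA. Matches that touch or overlap run together in capitals.
L1CAM promoter: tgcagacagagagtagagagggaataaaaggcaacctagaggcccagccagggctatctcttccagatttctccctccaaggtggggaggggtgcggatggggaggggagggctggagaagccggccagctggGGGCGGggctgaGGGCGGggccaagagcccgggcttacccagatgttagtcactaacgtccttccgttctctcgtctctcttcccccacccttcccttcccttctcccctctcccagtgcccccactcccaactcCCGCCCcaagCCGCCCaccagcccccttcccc
DCBLD1 promoter: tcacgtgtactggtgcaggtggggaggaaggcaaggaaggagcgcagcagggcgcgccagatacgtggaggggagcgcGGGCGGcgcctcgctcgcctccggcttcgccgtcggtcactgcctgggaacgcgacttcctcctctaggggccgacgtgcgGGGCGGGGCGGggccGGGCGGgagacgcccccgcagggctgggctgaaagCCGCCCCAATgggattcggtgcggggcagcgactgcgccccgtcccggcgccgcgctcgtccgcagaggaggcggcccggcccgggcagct
DCBLD2 promoter: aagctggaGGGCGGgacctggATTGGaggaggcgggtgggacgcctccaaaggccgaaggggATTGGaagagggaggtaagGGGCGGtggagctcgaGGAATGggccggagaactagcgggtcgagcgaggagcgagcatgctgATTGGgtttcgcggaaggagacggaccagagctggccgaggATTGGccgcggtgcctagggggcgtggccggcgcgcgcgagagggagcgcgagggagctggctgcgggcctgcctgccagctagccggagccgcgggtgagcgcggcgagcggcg
NFASC promoter: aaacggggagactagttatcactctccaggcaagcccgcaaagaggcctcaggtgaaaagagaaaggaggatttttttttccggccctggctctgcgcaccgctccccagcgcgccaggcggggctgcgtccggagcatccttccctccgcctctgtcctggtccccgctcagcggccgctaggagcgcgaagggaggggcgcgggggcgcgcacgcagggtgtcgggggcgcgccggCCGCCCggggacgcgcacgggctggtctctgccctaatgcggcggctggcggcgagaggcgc

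The DCBLD2 window held 4 CCAAT boxes, all on the strand opposite to the gene, together with 2 GC boxes and 1 TEAD match. Among all 35116 RefSeq windows, 34.6% held a CCAAT box and 0.991% held 4 or more. The DCBLD1 window held 5 GC boxes and 1 CCAAT box, and the L1CAM window held 4 GC boxes, where 45.0% of all windows held a GC box and 9.06% held 4 or more. The NFASC window held 1 GC box. A TEAD match was present in 14% of all windows and an AP-1 match in 7.71%, and neither was found in the windows of L1CAM, DCBLD1 or NFASC. No AP-1 match was found in the DCBLD2 window either. Of the windows not printed, the third of NRCAM held 1 AP-1 match and the second of L1CAM held 2 GC boxes. The GC content of the 4 windows was 64.7% for L1CAM, 75.7% for DCBLD1, 71.0% for DCBLD2 and 70.7% for NFASC, with a median of 58.7% over all windows. These are matches of letters and do not show binding.

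L1CAM, an adhesion molecule that promotes migration in nerve and tumor cells, differed between all 4 lines. It stood at 3.07 and 3.06 CPM in M1, 12.3 and 13.2 CPM in M2, 35.2 and 32.8 CPM in M3, and 50.3 and 40.4 CPM in M4. The libraries of the 4 lines did not overlap, in the order M1, M2, M3, M4. On the log2 scale, L1CAM was above M1 by 2.05 (SE 0.166) in M2, by 3.47 (SE 0.174) in M3 and by 3.89 (SE 0.177) in M4. The last step was small against the spread: M4 was 0.42 (SE 0.156) above M3, and the M4 replicates were further apart than the lower of them was from M3. In bulk RNA a higher level in more cells and a higher level per cell cannot be told apart. With the doubtful libraries exchanged the difference of L1CAM was 0.08 (SE 0.739) for M2, 2.15 (SE 0.766) for M3 and 2.56 (SE 0.777) for M4, so that M2 no longer stood apart from M1 while M3 and M4 stayed above.

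**Figure D1:**
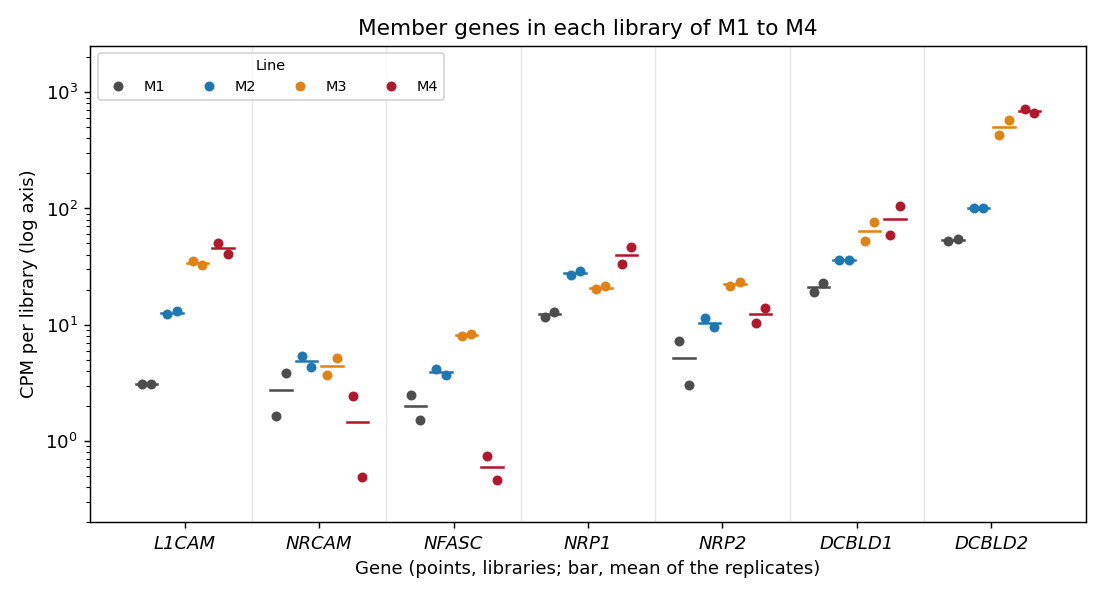
CPM of the 7 members with counts (log axis) in each library of M1, M2, M3 and M4. Points are libraries and bars are means of the 2 replicates. L1CAM and DCBLD2 rank M1, M2, M3, M4 without overlap, NFASC is highest in M3 and lowest in M4, and NRP2 is highest in M3.

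The remaining L1 family members followed other orders. CHL1, the close homologue of L1, had 0 counts in 7 libraries and 1 count in M4 replicate 2, under a floor of 3 counts per library (0.0264 to 0.0426 CPM), and it was not tested. Its antisense genes CHL1-AS1 and CHL1-AS2 had 0 counts in all 8 libraries. CHL1 mRNA was thus not detectable at this depth in any line, and counting error alone is covered by that floor.

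NFASC, which encodes neurofascin of the axon initial segment and the node of Ranvier, was at 2.50 and 1.52 CPM in M1, 4.15 and 3.70 CPM in M2, 7.95 and 8.29 CPM in M3, and 0.740 and 0.461 CPM in M4. The order M4, M1, M2, M3 was without overlap. M3 was 2.01 (SE 0.36) above M1 on the log2 scale, M4 was 1.73 (SE 0.366) below M1, and M4 was 3.74 (SE 0.39) below M3, the widest separation between M3 and M4 among the members. M2 was 0.96 (SE 0.352) above M1, and with the libraries exchanged this became -0.35 (SE 0.507), while M3 stayed 1.29 (SE 0.512) above and M4 at -2.46 (SE 0.539).

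NRCAM, a neuronal adhesion molecule that binds ankyrin, was low in all lines and varied between replicates. It stood at 1.64 and 3.83 CPM in M1, 5.36 and 4.35 CPM in M2, 3.68 and 5.20 CPM in M3, and 2.44 and 0.487 CPM in M4. M1 overlapped with M3 and with M4, and M2 overlapped with M3. Its differences from M1 were close to their SE in size, at 0.83 (SE 0.693) in M2, 0.70 (SE 0.692) in M3 and -0.89 (SE 0.699) in M4. The value for M4 rested on single libraries: it was -2.48 without M4 replicate 1 and -0.14 without M4 replicate 2. Exchanging the doubtful libraries gave 0.22, 0.34 and -1.25 for M2, M3 and M4.

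NRP1, the neuropilin that binds VEGFA and SEMA3A, was at 11.6 and 12.9 CPM in M1, 26.7 and 29.1 CPM in M2, 20.3 and 21.5 CPM in M3, and 32.97 and 46.6 CPM in M4. The order M1, M3, M2, M4 was without overlap, although M3 and M2 differed by only 0.42 (SE 0.188) on the log2 scale. NRP1 was above M1 by 1.19 (SE 0.19) in M2, 0.77 (SE 0.189) in M3 and 1.70 (SE 0.193) in M4, and M4 was 0.93 (SE 0.189) above M3. The exchange of libraries lowered the 3 differences from M1 to 0.13 (SE 0.475), 0.12 (SE 0.475) and 1.05 (SE 0.479).

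NRP2, which prefers SEMA3F and VEGFC, peaked in M3 instead. It was at 7.30 and 3.01 CPM in M1, 11.3 and 9.50 CPM in M2, 21.5 and 23.5 CPM in M3, and 10.4 and 14.1 CPM in M4. M2 and M4 overlapped, M3 lay above every other library, and M1 lay below. The difference from M1 was 1.01 (SE 0.381) in M2, 2.13 (SE 0.391) in M3 and 1.25 (SE 0.382) in M4, with M4 0.88 (SE 0.377) below M3. M1 replicates decided the size of these values: NRP2 in M4 was 0.75 above M1 without M1 replicate 2 and 2.04 above it without M1 replicate 1. With the exchange the differences were -0.58 (SE 0.504), 1.27 (SE 0.508) and 0.39 (SE 0.501).

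Per kilobase of exon, NRP1 exceeded NRP2 in every library, but by an unequal factor. The ratio of NRP1 to NRP2 was 1.92 and 5.15 for M1, 2.84 and 3.69 for M2, 1.14 and 1.101 for M3, and 3.81 and 4.002 for M4. In M3, therefore, the 2 neuropilins were at near-equal levels (1.81 ± 0.0703 and 1.62 ± 0.102 CPM per kb, SD, n = 2). Their order in M3 rested on the exon lengths used (11522 bases for NRP1 and 13896 for NRP2). In CPM, both M3 replicates held more NRP2 (21.5 and 23.5) than NRP1 (20.3 and 21.5). In M4 NRP1 was at 3.45 ± 0.839 against 0.881 ± 0.184 CPM per kb for NRP2.

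DCBLD2 was the most abundant member per kilobase in every library. Its levels were 52.1 and 54.9 CPM in M1, 100.4 and 101.7 CPM in M2, 428.0 and 573 CPM in M3, and 715 and 659.9 CPM in M4. The 4 lines did not overlap, again in the order M1, M2, M3, M4, with the widest step between M2 and M3 (2.31, SE 0.176). From M1 the log2 difference was 0.92 (SE 0.17) in M2, 3.23 (SE 0.183) in M3 and 3.68 (SE 0.187) in M4, and M4 was 0.46 (SE 0.168) above M3. With the libraries exchanged M2 differed from M1 by 0.04 (SE 0.387), M3 by 2.71 (SE 0.412) and M4 by 3.17 (SE 0.42). ST3GAL6, the overlapping gene, had at most 326 counts in a library, where DCBLD2 had at least 4314.

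DCBLD1, its paralogue, followed the same direction with smaller steps. It was at 19.1 and 22.7 CPM in M1, 35.9 and 36.0 CPM in M2, 52.7 and 75.8 CPM in M3, and 58.9 and 104 CPM in M4. M3 and M4 overlapped, and the difference between them changed sign with the library left out (0.34, SE 0.278, with all libraries, -0.11 without M4 replicate 2 and 0.70 without M4 replicate 1). Against M1, DCBLD1 was higher by 0.78 (SE 0.281) in M2, 1.62 (SE 0.286) in M3 and 1.96 (SE 0.289) in M4, and with the exchange by 0.09 (SE 0.409), 1.22 (SE 0.415) and 1.57 (SE 0.418).

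The ratio of DCBLD2 to DCBLD1 per kilobase was 1.65 and 1.46 for M1, 1.69 and 1.71 for M2, 4.91 and 4.57 for M3, and 7.34 and 3.83 for M4. The libraries of M3 and M4 were all above those of M1 and M2. DCBLD2 made up 44.8% to 47.6% of the summed per-kilobase level of the 8 genes in the M1 and M2 libraries and 69.3% to 76.5% in those of M3 and M4. Its mean level was 4.74 ± 0.172 CPM per kb in M1 and 61.0 ± 3.47 CPM per kb in M4 (SD, n = 2). The per-kilobase level of L1CAM was 3.59 and 5.88 times that of NFASC for M1, and 199 and 256 times for M4.

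**Figure D2:**
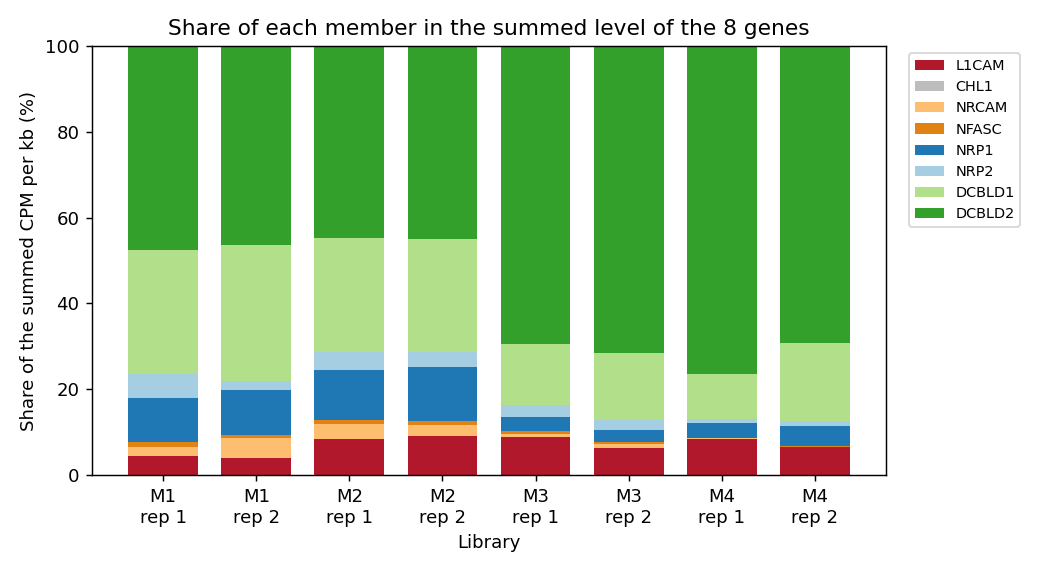
Share of each member in the summed level of the 8 genes (CPM per kilobase of exon, in %), as a stacked bar for each library. DCBLD2 takes 44.8% to 47.6% in the M1 and M2 libraries and 69.3% to 76.5% in the M3 and M4 libraries.

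Counted by the rule used for all genes (edgeR, Benjamini-Hochberg adjusted p under 0.05 and an absolute log2 difference above 1), 7 of the 8 members could be tested and CHL1 could not. In M2 against M1 the rule was met by 2 members, L1CAM and NRP1, where 3.37% of all 18431 tested genes met it. In M3 against M1 it was met by 5 members (L1CAM, NFASC, NRP2, DCBLD1 and DCBLD2) and by 13.5% of all genes. In M4 against M1 it was met by 5 members in the upward direction (L1CAM, NRP1, NRP2, DCBLD1 and DCBLD2; 9.48% of all genes) and by NFASC in the downward direction (11.2%), with 20.7% in either direction. In M4 against M3 NFASC met it, with 10.3% of all genes. Since the members were chosen with these values known, nothing is read from these counts.

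An order of M1, M2, M3, M4 without overlap was shown by 2 members, L1CAM and DCBLD2, and by 2.0% of all tested genes (368). With the exchange neither kept it, since M1 would then hold 3.07 and 12.3 CPM of L1CAM against 3.06 and 13.2 CPM in M2, and 52.1 and 100.4 CPM of DCBLD2 against 54.9 and 101.7 CPM. With the doubtful libraries exchanged the rule was met by 0 members in M2 against M1, by DCBLD2 in M3 against M1, and by DCBLD2 and NFASC in M4 against M1. Of all 18431 tested genes, 0, 219 and 1559 then met it in these comparisons, against 622, 2494 and 3821 as labelled. Leaving out either M2 library also ended the members' calls in M2 against M1, as it did nearly all calls over all tested genes. The L1CAM difference itself stayed between 2.00 and 2.11 under every omission of a library. NRP1 in M2 was also short of the rule without M1 replicate 1 (1.11), and NFASC in M4 without M4 replicate 2 (-1.42). NRP2 in M4 against M1 met it with all libraries but not on leaving out any library other than M1 replicate 1 (0.75 to 1.45). Without M4 replicate 1 the rule was newly met by NRP1 in M4 against M3 (1.16) and by NRCAM in M4 against M1 (-2.48), and without M1 replicate 1 by NRP2 in M2 against M1 (1.79).

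**Figure D3:**
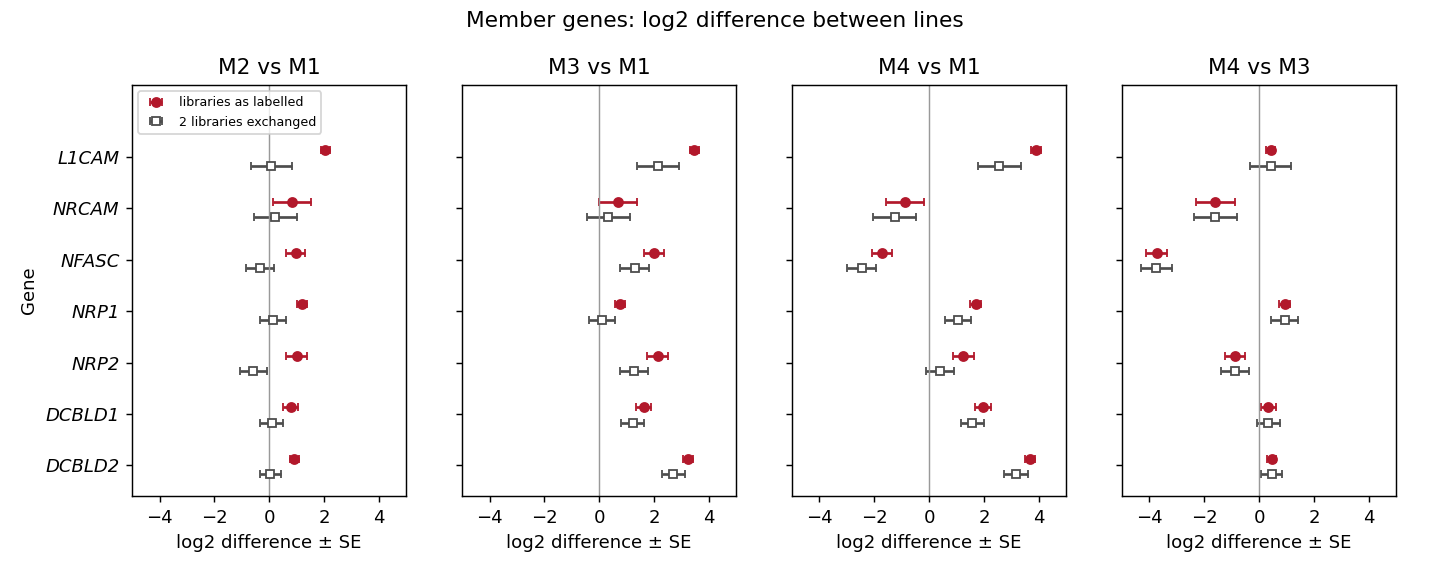
Log2 difference (x axis, ± SE) of the 7 tested members in 4 comparisons of lines. Red circles use the libraries as labelled, and open squares use M1 replicate 2 and M2 replicate 1 exchanged. In M2 against M1 the L1CAM difference goes from 2.05 to 0.08 with the exchange, and in M4 against M1 DCBLD2 goes from 3.68 to 3.17.

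Across the 8 libraries the levels of the members moved together to unequal degrees. Pearson's r of log2 CPM was 0.955 between L1CAM and DCBLD2, 0.938 between DCBLD1 and DCBLD2, and 0.922 between L1CAM and DCBLD1. NRCAM and NFASC had r = 0.761 with each other and between -0.284 and -0.067 with L1CAM or DCBLD2. NRP1 and NRP2 had r = 0.48 with each other. With L1CAM, DCBLD2 and DCBLD1, r was 0.793, 0.68 and 0.803 for NRP1 and 0.796, 0.741 and 0.738 for NRP2. These 8 points are 4 lines with 2 replicates each, so they are descriptions of 4 levels.

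For each member the nearest genes were taken as those with the highest r over the 8 libraries, among 5721 genes whose line means spanned at least 1 on the log2 scale and reached 1 CPM. L1CAM was followed most closely by C1GALT1, a galactosyltransferase of O-glycan synthesis (r = 0.995), and by PNP, an enzyme of purine salvage (r = 0.991), and 166 genes exceeded an r of 0.95 with it. DCBLD2 was followed by SEMA3B, a class 3 semaphorin (r = 0.997), and SH3TC2 (r = 0.995), with 145 genes above 0.95. For DCBLD1 they were FMNL2, a formin (r = 0.986), and TBCCD1 (r = 0.984). NFASC had as its nearest gene KRT14, a keratin of basal epithelial cells (r = 0.987), with means of 13.0, 36.8, 95.4 and 2.52 CPM in M1, M2, M3 and M4, followed by CDKL3 (r = 0.978). For NRCAM they were VASH1 (r = 0.986) and SULF1, an extracellular sulfatase (r = 0.973), for NRP1 the kinesin KIF24 (r = 0.995) and SEPTIN11 (r = 0.97), and for NRP2 the centromere gene CENPL (r = 0.976) and SGPP1 (r = 0.97).

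A list of 64 genes known to act with the members was examined alongside, of which 63 were in the table and 56 were tested. The list was also chosen with earlier results of these data known, so its counts and adjusted p-values serve as descriptions. In M2 against M1, 3 of them passed the threshold, 1 higher and 2 lower (2.26% of all genes were higher and 1.11% lower). In M3 against M1, 13 passed, 11 higher and 2 lower (8.02% and 5.51% of all genes), and in M4 against M1, 13 passed, 8 higher and 5 lower (9.48% and 11.2%). In M4 against M3, 6 passed, 1 higher and 5 lower (3.99% and 6.3%). Their median log2 differences were -0.03, 0.35, 0.30 and -0.12, against -0.04, -0.02, -0.02 and -0.02 for all tested genes. With the doubtful libraries exchanged, 0, 2, 7 and 5 of the list passed. Of all 18431 tested genes, 0, 219, 1559 and 830 passed with the exchange, against 622, 2494, 3821 and 1897 as labelled.

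The class 3 semaphorins, the secreted ligands of the neuropilins, had 1 of 7 genes past the threshold in M2 against M1, 5 in M3 against M1, 3 in M4 against M1 and 2 in M4 against M3. Of all tested genes, 3.37%, 13.5%, 20.7% and 10.3% passed in these comparisons. SEMA3B stood at 4.46 and 4.35 CPM in M1, 6.30 and 6.81 CPM in M2, 26.6 and 32.2 CPM in M3, and 46.3 and 38.9 CPM in M4. It rose over M1 by 2.74 (SE 0.179, edgeR adjusted p = 0.000309) in M3 and by 3.27 (SE 0.183, adjusted p = 9.62e-05) in M4, and these calls held under all 15 alternatives tried. SEMA3F, the preferred ligand of NRP2, was at 105 and 89.9 CPM in M1, 81.1 and 79.5 CPM in M2, 58.1 and 30.6 CPM in M3, and 7.58 and 8.16 CPM in M4. It fell below M1 by 3.63 (SE 0.297, adjusted p = 0.000281) in M4, and below M3 by 2.49 (SE 0.284, adjusted p = 0.00309), under all 15 alternatives in both cases. SEMA3B and SEMA3F thus ended at opposite ends of their range in M4.

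SEMA3F in M3 was 1.14 below M1 (SE 0.27, adjusted p = 0.0229), and that call was lost without M1 replicate 1 (-1.02, adjusted p = 0.0782), without M3 replicate 2 (-0.74) and with the exchange (-1.07, adjusted p = 0.138). SEMA3A, the preferred ligand of NRP1, was at 1.11 and 3.00 CPM in M1, 8.83 and 8.80 CPM in M2, 8.73 and 9.97 CPM in M3, and 11.8 and 9.75 CPM in M4. It rose over M1 in M2 (2.1, SE 0.423, adjusted p = 0.0347), M3 (2.18, SE 0.425, adjusted p = 0.0113) and M4 (2.39, SE 0.427, adjusted p = 0.00543). None of the 3 held with the exchange (0.24, 0.91 and 1.12). The M2 call was also lost on leaving out any library of M2, M3 or M4, at log2 differences of 2.1 to 2.11. Without either M2 library, nearly all calls over all genes were lost in M2 against M1 as well.

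SEMA3E, a ligand of PLXND1, passed in M3 against M1 (2.25, SE 0.639, adjusted p = 0.0426) through M3 replicate 1, with 3.40 CPM against 0.884 CPM in M3 replicate 2 and 0.350 to 0.802 CPM elsewhere. Without M3 replicate 1 it was 0.98 (adjusted p = 0.221), and the call was lost in 10 of 15 alternatives. SEMA3G also passed in M3 against M1 (4.37, adjusted p = 0.0121) and in M4 against M3 (-4.0, adjusted p = 0.0187). It is named here after its values were seen, and its counts were 22 and 68 in M3 and 2 to 4 in every other library. Both calls were lost without M3 replicate 2 (3.45 and -3.07, adjusted p = 0.0943 and 0.113). The call against M1 was also lost without either M1 library (4.37 and 4.38, adjusted p = 0.059 and 0.0547) and with the exchange (3.99, adjusted p = 0.0865), and the call against M3 without either M4 library (-3.73 and -4.24, adjusted p = 0.123 and 0.0893). SEMA3C had 118 and 227 CPM in M1 and 87.3 and 90.2 CPM in M4 and did not pass with edgeR (-0.96, SE 0.279, adjusted p = 0.0337), although it did without M1 replicate 1 (-1.34, adjusted p = 0.00322). SEMA3D in M3 did not pass either (1.5, SE 0.646, adjusted p = 0.136), but passed with DESeq2 (1.49, adjusted p = 0.0422), without the filter on low counts (adjusted p = 0.00213) and without M1 replicate 2 (2.76, adjusted p = 0.0298).

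Of the 9 plexins, which carry the semaphorin signal, 8 were tested and PLXNA4, at 0.128 CPM or less, was not. None passed in M2 against M1, where 3.37% of all tested genes did. PLXNA1, a partner of NRP1 for SEMA3A, was at 103 and 130.2 CPM in M1, 133.8 and 129 CPM in M2, 242 and 351 CPM in M3, and 251 and 296 CPM in M4. It rose over M1 in M3 (1.35, SE 0.212, adjusted p = 0.0052) and M4 (1.23, SE 0.212, adjusted p = 0.0047), and with the exchange the M3 call was lost (1.32, adjusted p = 0.0543).

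PLXNA2 rose in M4 over M1 by 1.41 (SE 0.169, adjusted p = 0.00116) and PLXNB1, the receptor of SEMA4D, fell by 1.34 (SE 0.182, adjusted p = 0.00183), both under all 15 alternatives. PLXND1 rose in M3 by 2.43 (SE 0.466, adjusted p = 0.0109), from 3.72 and 5.33 CPM in M1 to 13.5 and 35.4 CPM. That call was lost without M1 replicate 1 (2.21, adjusted p = 0.0575) and with the exchange (2.29, adjusted p = 0.0885). PLXNA3 was at 20.6 and 19.04 CPM in M3 and 62.9 and 45.2 CPM in M4, and rose from M3 to M4 by 1.45 (SE 0.187, adjusted p = 0.00442) under all 15 alternatives. PLXNB2, PLXNB3 and PLXNC1 did not pass in any of the 4 comparisons with edgeR. PLXNC1 in M4 against M1 did so without M4 replicate 1 (-2.03, adjusted p = 0.0473). PLXND1 in M4, short of the threshold with edgeR, passed with DESeq2 against M1 (1.13, adjusted p = 0.0301) and against M3 (-1.3, adjusted p = 0.0159).

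**Figure D4:**
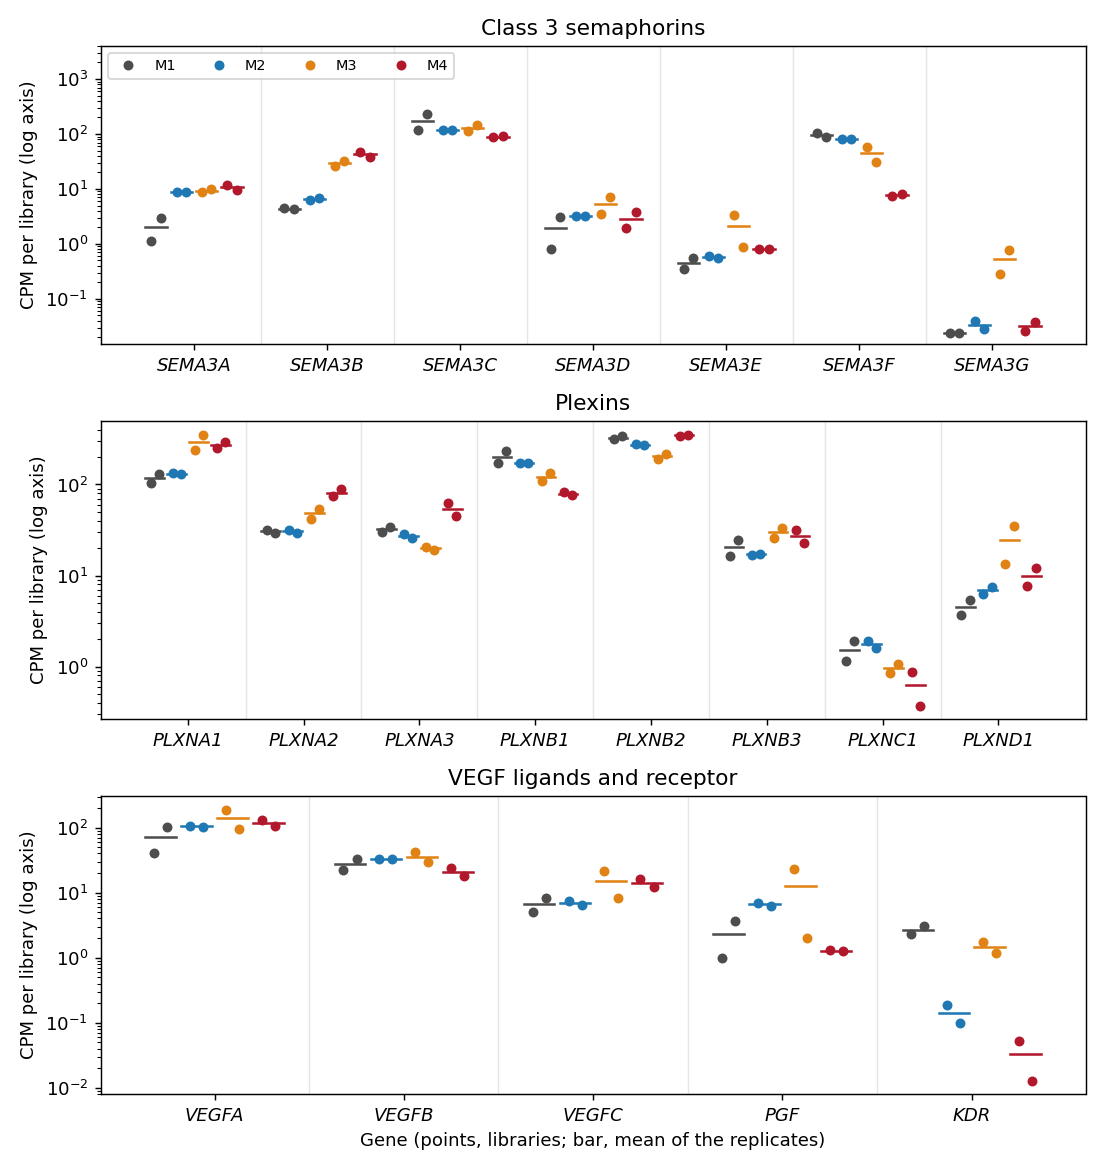
CPM (log axis) of the class 3 semaphorins, of the 8 tested plexins and of the VEGF genes that reach 1 CPM, in each library of M1, M2, M3 and M4. Points are libraries and bars are means of the 2 replicates. SEMA3B is highest in M4, SEMA3F falls to 7.58 and 8.16 CPM in M4, and KDR is under 0.2 CPM in M2 and M4.

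Among VEGF genes, the other ligands and receptors that use neuropilins, FLT1 and FLT4 had 0 counts in all libraries, and 6 of 8 genes were tested. KDR, the main VEGF receptor of endothelium, was counted 193 and 249 times for M1, 19 and 7 for M2, 139 and 103 for M3, and 6 and 1 for M4. It fell against M1 in M2 (-4.19, SE 0.589, adjusted p = 0.0108) and M4 (-6.20, SE 0.676, adjusted p = 0.000763), and from M3 to M4 (-5.33, SE 0.662, adjusted p = 0.00385). The 5 endothelial markers in the table stayed at or under 0.392 CPM in every library. In M2 the KDR difference became 0.32 (SE 1.43) with the exchange. The M2 call was also lost without M2 replicate 1 (-4.73) or M2 replicate 2 (-3.83), as were nearly all calls over all genes. The M4 calls were lost with the exchange as well (-5.12, adjusted p = 0.12, against M1 and -5.34, adjusted p = 0.133, against M3). VEGFA, at 40.8 and 101 CPM in M1 and 129 and 105 CPM in M4, did not pass with edgeR, nor did VEGFB, VEGFC or PGF. Without M1 replicate 2, VEGFA passed against M1 in M3 (1.81, adjusted p = 0.0258) and in M4 (1.52, adjusted p = 0.0351). DESeq2 called VEGFC against M1 in M3 (1.17, adjusted p = 0.0266) and in M4 (1.12, adjusted p = 0.0297), and PGF in M4 against M3 (-3.26, adjusted p = 0.0288). Without the filter on low counts VEGFA (adjusted p = 4.63e-06), VEGFC (1.19, adjusted p = 0.000406) and PGF (2.42, adjusted p = 1.26e-09) passed in M3 against M1. Their M3 libraries overlapped with M1, and only M3 replicate 1 lay above both M1 libraries. In M3, VEGFA was at 189 and 95.6 CPM, VEGFC at 21.7 and 8.22 CPM, and PGF at 23.0 and 2.00 CPM. In M1, VEGFC was at 4.98 and 8.22 CPM and PGF at 0.991 and 3.70 CPM. With the filter, the edgeR adjusted p was 0.15 for VEGFA, 0.101 for VEGFC and 0.14 for PGF. The adaptors GIPC1 and MYO6 of the neuropilin tail did not pass with edgeR either.

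The ankyrin, spectrin, ERM and DLG genes, whose proteins meet the L1 family tail inside the cell, had 1, 2, 1 and 0 of 10 genes past the threshold in the 4 comparisons. The shares of all tested genes were 3.37%, 13.5%, 20.7% and 10.3%, so nothing is read from these counts. ANK3, which encodes ankyrin-G, was at 63.4 and 86.9 CPM in M1, 31.0 and 30.5 CPM in M2, 26.8 and 20.6 CPM in M3, and 27.4 and 34.6 CPM in M4. It fell against M1 by 1.29 (SE 0.212, adjusted p = 0.0177) in M2, 1.67 (SE 0.215, adjusted p = 0.00256) in M3 and 1.28 (SE 0.212, adjusted p = 0.00408) in M4. L1CAM thus stood higher and ANK3 lower than in M1 in each of the 3 other lines. The exchange ended the 3 calls for ANK3 (0.32, -0.99 and -0.61). In M2, leaving out M2 replicate 1 (-1.30) or M2 replicate 2 (-1.27) also ended the call, along with nearly all calls over all genes. ANK2 in M3 (1.46, SE 0.391, adjusted p = 0.0346) kept its call in 7 of 15 alternatives and lost it, for example, without M1 replicate 1 or 2, M2 replicate 1 or 2, or M3 replicate 2 (1.00 to 1.67).

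Of 15 surface partners of the L1 family, 11 were tested, and 0, 3, 3 and 1 passed. Among all tested genes, 3.37%, 13.5%, 20.7% and 10.3% did. CNTN1, contactin-1, which binds NFASC and NRCAM, rose from 0.0846 and 0.159 CPM in M1 to 1.67 and 3.98 CPM in M3 (4.52, SE 0.698, adjusted p = 0.00476), under all 15 alternatives. It was at 0.943 and 0.448 CPM in M4 (2.51, SE 0.663, adjusted p = 0.0243), and that call was lost without M1 replicate 1 (2.15, adjusted p = 0.107), M1 replicate 2 (3.03, adjusted p = 0.0551) or M4 replicate 1 (1.88, adjusted p = 0.119). ITGA5 and ITGB1, the integrin subunits of the fibronectin receptor that L1CAM also binds, rose over M1 in M3 (1.41, SE 0.138, adjusted p = 0.00104; 1.11, SE 0.172, adjusted p = 0.00473) and in M4 (1.89, SE 0.14, adjusted p = 0.000222; 1.15, SE 0.172, adjusted p = 0.0027). With the exchange those calls were lost (0.80 and 0.69 in M3, 1.29 and 0.72 in M4), and ITGB1 in M3 was also lost without M3 replicate 2 (1.00). PTPRZ1, a phosphatase that binds contactin-1 and NRCAM, fell from 18.0 and 21.4 CPM in M3 to 4.49 and 1.47 CPM in M4 (-2.71, SE 0.69, adjusted p = 0.0381). Leaving out any library of M2, M3 or M4 ended that call (-3.73 to -2.11, adjusted p = 0.0618 to 0.14), as did a replicate block (-2.65, adjusted p = 0.0682).

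NFASC, CNTN1 and SEMA3G, which were highest in M3, shared that peak with S100B, a glial and Schwann cell marker. S100B was at 9.06 and 21.3 CPM in M3 and at 0 to 0.0854 CPM in every other library. The 6 glial markers summed to 28.0 to 28.9 CPM in M1 and M2, 33.2 to 54.2 CPM in M3 and 42.4 to 43.6 CPM in M4. MBP carried most of that sum (23.9 to 43.2 CPM), and SOX10 and GFAP stayed under 1 CPM in every library. The part of this marker in the M3 values was not tested.

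Of the 6 proteases of shedding and processing, 0, 1, 2 and 1 passed, beside 3.37%, 13.5%, 20.7% and 10.3% of all tested genes. BACE2 rose over M1 in M3 (1.43, SE 0.221, adjusted p = 0.00476) and M4 (1.43, SE 0.221, adjusted p = 0.00306), and lost both calls with the exchange (0.95 and 0.96). BACE1, the β-secretase that cleaves CHL1, went from 32.1 and 38.0 CPM in M1 to 9.30 and 11.02 CPM in M4. It fell against M1 (-1.79, SE 0.163, adjusted p = 0.00041) and against M3 (-1.51, SE 0.162, adjusted p = 0.00253) under all 15 alternatives. ADAM10 and ADAM17, the sheddases of L1CAM, did not pass with edgeR in any comparison. None of the 6 genes of the DCBLD list (the adaptors CRK and CRKL, the kinases ABL1, FYN and SRC, and TRAF6) passed with edgeR, while DCBLD1 and DCBLD2 themselves were at their highest mean levels in M4.

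**Figure D5:**
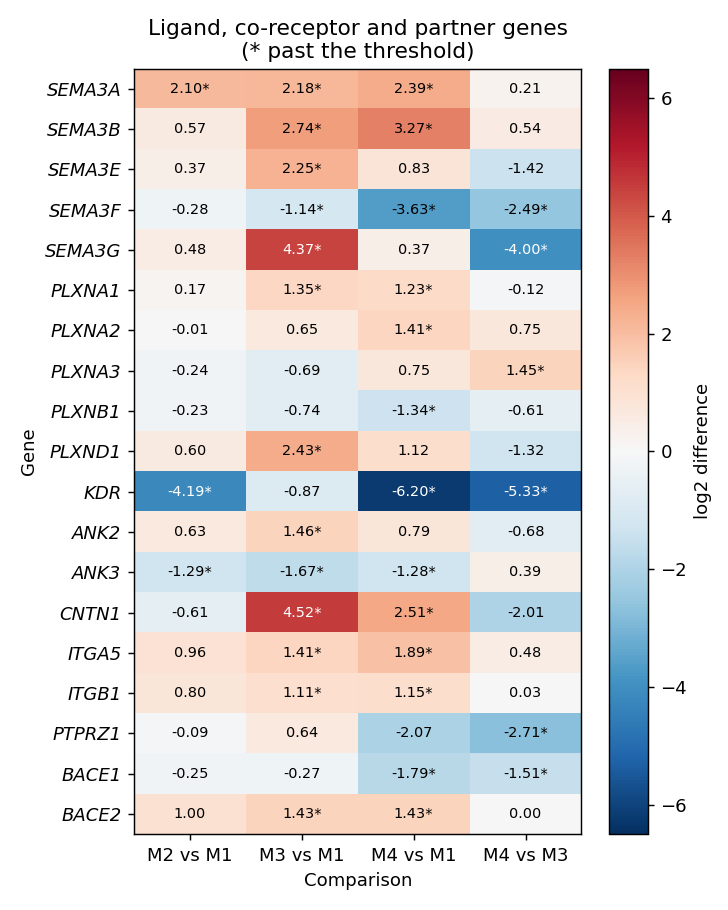
Log2 differences (color and printed value) of the 19 listed partner genes that pass the threshold in at least 1 of 4 comparisons, marked with an asterisk where they pass. SEMA3F and SEMA3B go in opposite directions in M4 against M1 (-3.63 and 3.27), and ANK3 is lower than M1 in all 3 other lines.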

How the data were processed

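RNA was poly A+ selected, prepared with TruSeq kits and sequenced as paired ends on a HiSeq instrument. Per the labels and the study's methods, the authors trimmed reads with Trimmomatic, aligned them with STAR to hg19 (GRCh37), used Picard, and counted per gene with RSEM on GENCODE v19. Versions and strand use are not given in the sources used here. The values deposited by the authors are expected counts for 56632 genes, not normalized, of which 12.8% are not whole, and they were rounded before testing. Symbols and positions came from GENCODE release 44 on GRCh37 and matched 94.4% of the gene IDs. Exon lengths for the per-kilobase levels are the union of all exons of a gene in that release. Counting used GENCODE v19, so per-kilobase ratios between genes depend on this choice of length.

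Genes were filtered with filterByExpr and tested with edgeR 4.0.16 in R 4.3.3 (TMM scaling, robust quasi-likelihood test, 1 coefficient per line, all 8 libraries), with Benjamini-Hochberg adjustment over 18431 genes. A gene passed at an adjusted p under 0.05 and an absolute log2 difference above 1. The SE is the size of the log2 difference divided by the square root of F. TMM factors ran from 0.9023 to 1.0573. The fits were tested on simulated data. A gene at 10 counts in a library of this depth carries a large counting error. Python 3.11.15, pandas 2.3.3, numpy 2.4.6 and matplotlib 3.10.9 did the rest. RefSeq promoter windows (GRCh38.p14) were found for 7 of the 8 members, and coordinates of the 2 builds were kept apart.

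The members and the partner and marker lists were chosen with earlier results of these data known. Genes named were all 8 members, HRAS, every class 3 semaphorin, plexin and VEGF gene with a mean of at least 1 CPM in a line, up to 4 genes of each other partner list with the largest difference among those that passed with both replicates agreeing in sign, genes overlapping a member on the other strand, and the 2 nearest genes by correlation (log2 CPM, prior count 2) of each member with a mean of at least 1 CPM. Markers and partners outside this rule, such as SEMA3G and S100B, were named after their values were seen. Deviations of same-numbered replicates correlated at 0.216 between M3 and M4 and at -0.086 to 0.007 between the other pairs of lines. The GEO labels alone were used for this check. No block was used in the main fit, and a block was run as an alternative. Alternatives were other scalings (DESeq2-type size factors, library totals), DESeq2 1.42.0, no filter, a replicate block, only the 2 lines compared, no limit on the fold, the exchanged libraries, and each library left out. Single values of some marker genes are not reported here.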

Additional observations from a re-analysis of the deposited data

Results flagged for a closer look

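For 2 genes of the semaphorin receptor and L1 partner lists, M3 and M4 lay on opposite sides of M1. PLXNA3 was lower than M1 in both M3 libraries and higher in both M4 libraries, and M4 exceeded M3 by 1.45 on the log2 scale (edgeR, adjusted p = 0.00442). PTPRZ1 went the other way: its mean was above M1 in M3 and below M1 in M4, the difference of M4 from M3 was -2.71 (adjusted p = 0.0381), and its M1 libraries were far apart, at 5.41 and 19.8 CPM. That call for PTPRZ1 was lost in 7 of 15 alternatives, with a replicate block and on leaving out any library of M2, M3 or M4.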

How the results depend on the processing

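Each line is represented by 2 libraries, so leaving 1 out leaves an arm whose lone library is assumed to vary like the others, and NRCAM had the largest SE of the tested members in each of the 4 comparisons (0.692 to 0.707). With M1 replicate 2 and M2 replicate 1 exchanged, members past the threshold went from 2 to 0 in M2 against M1, from 5 to 1 in M3 against M1 and from 6 to 2 in M4 against M1. Partner genes went from 3 to 0, 13 to 2 and 13 to 7, and all tested genes from 622 to 0, 2494 to 219 and 3821 to 1559. The exchange changed the sign of KDR (0.32, SE 1.43) and ANK3 (0.32, SE 0.504) in M2 against M1, to values smaller than their SE.

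Without the filter on low counts, 5 partners passed in M2 against M1 and 11 in M4 against M3, where 2 members did. Of all 29419 genes tested without the filter, 1788 and 2916 passed, against 622 and 1897 of 18431 in the main fit. With no limit on the fold, 7 and 13 partners passed in those comparisons, and 2 members in M4 against M3. The share of all genes under that rule is not given here. DESeq2 gave 10 partners and 2 members in M4 against M3, and library totals gave 2 members. The added member was NRP1 with library totals and NRCAM under DESeq2 and without the filter. Over all genes, 2510 of 18567 passed in M4 against M3 with DESeq2 and 1899 of 18431 with library totals. Leaving out single libraries gave 0 to 2, 5 to 5, 4 to 6 and 1 to 2 members in the 4 comparisons (M2, M3 and M4 against M1, then M4 against M3), and 0 to 5, 8 to 13, 13 to 17 and 4 to 6 partners. The lowest numbers in M2 against M1 came from leaving out M2 replicate 1 or 2, which ended nearly all calls over all genes there. The highest number of partners in M2 against M1 came from leaving out M1 replicate 2. The lowest number of partners in M3 against M1 came from leaving out M1 replicate 1. The highest number of members in M4 against M3 came from leaving out M4 replicate 1. Calls over all genes changed with these omissions too, so nothing is read from these counts. NRP2 in M4 against M1 fell short of the threshold in 9 alternatives, although its value stayed above 0.

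A replicate block left 2, 5, 6 and 1 members and 4, 13, 14 and 6 partners past the threshold. Of all 18431 tested genes, 587, 2338, 3628 and 1756 then passed. Of 420 alternative values for the members, 404 differed from the main value by less than the spread between replicates and 16 by more. That spread is the larger replicate SD of the lines compared. Leaving out 1 of 2 libraries moves a line's mean by less than this SD nearly by construction, so the 404 say little about stability. The exchange moved L1CAM in M2 against M1 from 2.05 to 0.08, for example. For the partner genes named, 1564 of 1677 stayed on their side of the threshold, 68 fell short of it, 43 newly passed and 2 changed sign. The 1677 include results that did not pass with the main value, for which staying means not passing. Of the calls themselves, 0 of 3 in M2 against M1 and 2 of 13 in M3 against M1 were kept under every alternative. Kept likewise were 6 of 13 in M4 against M1 and 3 of 6 in M4 against M3. The exchange ended 3, 11, 6 and 1 calls in these comparisons. The causes were not tested.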
